A study of Mus musculus with 15 samples.

Results

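Integrins are the receptors through which a cell holds on to its surrounding matrix, and 10 integrin subunit genes were followed here by their gene symbols: the 8 α subunit genes *Itga1*, *Itga2*, *Itga3*, *Itga4*, *Itga5*, *Itga6*, *Itga8* and *Itga11* and the 2 β subunit genes *Itgb1* and *Itgb3*. They were found as 9 of the 20910 genes in the count table of cultured mouse retinal pigment epithelium cells (mRPE) and as 10 of the 25038 genes in the count table of mouse RPE/choroid. *Itga4* was not analysed here in the cultured cells. All of the members found passed the filter on low counts.

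The retinal pigment epithelium (RPE) is the pigmented cell layer beneath the photoreceptors, and it rests on Bruch's membrane, a sheet of collagens, laminins and fibronectin. The study removed *Prom1*, which encodes the membrane protein Prominin-1. The mRPE cells were C57/BL6J RPE cells pooled from several animals, immortalized with the E6 and E7 genes of human papillomavirus. They were given Cas9 by lentivirus under puromycin selection, and a guide to *Prom1* exon 5. The knockout lines KO22 and KO26 carry deletions at different sites in *Prom1*, and each is a single clone. The mRPE libraries comprised 4 of WT, 3 of KO22 and 2 of KO26, in sequencing batches 1 and 2. The paper removed both KO26 libraries as outliers in its comparison of samples, and they were kept here. The RPE/choroid libraries comprised 3 of WT mice and 3 labelled *Prom1*-KO, for which *Prom1* fl/fl mice were crossed with RPE65-Cre mice and gavaged with tamoxifen, so that Cre acted from an RPE promoter and, by design, choroid and retina kept the gene. The labels used here give no age for these mice. Nothing in the labels says that the libraries of a group came from separate cultures or animals, and p-values then measure only the spread between these libraries.

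Total counts ran from 8076188 to 27537863 per mRPE library and from 48154444 to 61766179 per RPE/choroid library. *Prom1* itself was not analysed here in the cultured cells. In RPE/choroid its level was 48.7, 49.6 and 53.3 CPM in WT, where CPM is the count scaled to the size of the library, and 49.9, 48.1 and 35.5 CPM in the libraries labelled *Prom1*-KO, and the groups overlapped (log2 fold change -0.18 ± 0.16 SE, adjusted p = 0.824, edgeR's quasi-likelihood test). The summed level of 4 rod photoreceptor markers ran from 35.5 to 990 CPM in WT and from 17.5 to 478 CPM in the others, and its part in the level of *Prom1* was not tested. The targeted gene therefore does not separate these libraries by label, and they are called the libraries labelled *Prom1*-KO throughout. Replicate 3 of them stood apart, with 84.2% of its counts from mitochondrial genes against 64.9 to 71.3% in the other RPE/choroid libraries. The summed level of 6 RPE markers was 876 to 1540 CPM in WT tissue and 92.2 to 191 CPM in the libraries labelled *Prom1*-KO. Of these, *Ttr* had a mean of 731 and 90.4 CPM, and *Best1* a mean of 1.43 and 1.23 CPM. In the cultured cells, of those 6 markers only *Best1* and *Rdh5* were analysed, at a summed 4.55 to 18.6 CPM, while *Rpe65*, *Rlbp1*, *Ttr* and *Lrat*, which define mature RPE, have no value here. In these bulk libraries, fewer cells of a type and less RNA per cell cannot be told apart.

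Each integrin is a pair of 1 α and 1 β chain, and the α chain largely sets which ligand is bound. With β1, the chains α1, α2 and α11 bind collagens, α3 and α6 bind laminins of the basement membrane, α5 binds fibronectin and α8 binds nephronectin and fibronectin through the RGD motif, and α4 binds fibronectin and the vascular adhesion molecule VCAM-1. The chain β3 pairs with αv, encoded by *Itgav*, and binds vitronectin, osteopontin and fibronectin. In the eye, the αv integrins of RPE are known for their place in the uptake of shed outer segments, and the β1 integrins for anchoring RPE to its basement membrane.

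In KO22 the α subunit transcripts among the members changed their make-up. The collagen receptor chains *Itga1* and *Itga11* and the nephronectin receptor chain *Itga8* fell by 20.2 to 29.4 times against WT, the laminin receptor chain *Itga6* rose 11.6-fold, and *Itgb3* rose 2.42-fold. *Itga5* and *Itgb1* were higher by smaller steps, and *Itga2* and *Itga3* did not pass the test. In KO26, the other knockout clone, none of the 9 passed both limits, and in RPE/choroid none of the 10 did.

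The promoters of the 3 genes that fell and of the α gene that rose are shown because the α genes moved in opposite directions. Each is the 250 bases before the start of the canonical transcript of GENCODE vM39 on GRCm39, 5′ to 3′ in the sense of the gene, and the capitals mark the letters GGGCGG, the core of the GC box to which Sp1 binds, or their reverse complement.
Itga8, chr2:12307215-12307464, - strand: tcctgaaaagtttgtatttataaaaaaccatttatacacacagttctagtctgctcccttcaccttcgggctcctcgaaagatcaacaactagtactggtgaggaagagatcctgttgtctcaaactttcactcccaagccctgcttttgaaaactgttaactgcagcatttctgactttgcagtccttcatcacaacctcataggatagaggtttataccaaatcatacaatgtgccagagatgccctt
Itga1, chr13:115238678-115238927, - strand: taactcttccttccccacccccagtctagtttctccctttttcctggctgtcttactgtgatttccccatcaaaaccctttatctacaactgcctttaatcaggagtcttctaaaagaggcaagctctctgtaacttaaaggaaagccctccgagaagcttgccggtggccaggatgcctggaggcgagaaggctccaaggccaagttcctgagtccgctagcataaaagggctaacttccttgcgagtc
Itga11, chr9:62584858-62585107, + strand: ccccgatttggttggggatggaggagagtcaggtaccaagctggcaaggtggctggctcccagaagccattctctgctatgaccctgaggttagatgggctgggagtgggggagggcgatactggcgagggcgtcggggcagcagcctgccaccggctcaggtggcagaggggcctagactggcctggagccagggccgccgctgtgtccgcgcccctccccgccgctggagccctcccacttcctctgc
Itga6, chr2:71616969-71617218, + strand: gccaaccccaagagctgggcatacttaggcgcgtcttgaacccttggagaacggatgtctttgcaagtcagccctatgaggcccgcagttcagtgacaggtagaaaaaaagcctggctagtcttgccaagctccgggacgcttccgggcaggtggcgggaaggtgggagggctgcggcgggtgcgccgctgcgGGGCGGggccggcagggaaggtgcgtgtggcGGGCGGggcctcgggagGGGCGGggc
GGGCGG occurred 3 times in the *Itga6* window and was not found in those of *Itga1*, *Itga8* and *Itga11*. Over the 10 members it was found in 5, those of *Itga3*, *Itga5*, *Itga6*, *Itgb1* and *Itgb3*, and it was present in 36.3% of the 21757 promoters of the same length. The GC content was 67.6% for *Itga6*, 68% for *Itga11*, 50% for *Itga1* and 41.2% for *Itga8*, against a median of 53.2% over all promoters. TGANTCA, the letters of the AP-1 site, and GGAATG with its reverse complement, the letters of a TEAD site, were found in none of the 10, against 6.2% and 12.1% of all promoters. A match to letters is a description and does not show binding.

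The first comparison asked which integrin subunits differed between KO22 and WT cells. A gene was called when its adjusted p was under 0.05 and its absolute log2 fold change over 1.2. Of the 20455 genes tested 25.2% were called, 11.4% higher and 13.8% lower, so calls were frequent throughout the transcriptome. Of the 9 members 5 were called, *Itga6* and *Itgb3* higher and *Itga1*, *Itga8* and *Itga11* lower. The median log2 fold change of the 9 was 0.54, beside -0.03 over all genes tested. By the adjusted p alone 7 of the 9 passed, against 53.0% of all genes, and 7 of the 9 had groups that did not overlap, against 50.1% of all genes. These shares lie above the background, but the members were few and were chosen with earlier results of these data known. The shares were not tested against the background.

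**Figure D1:**
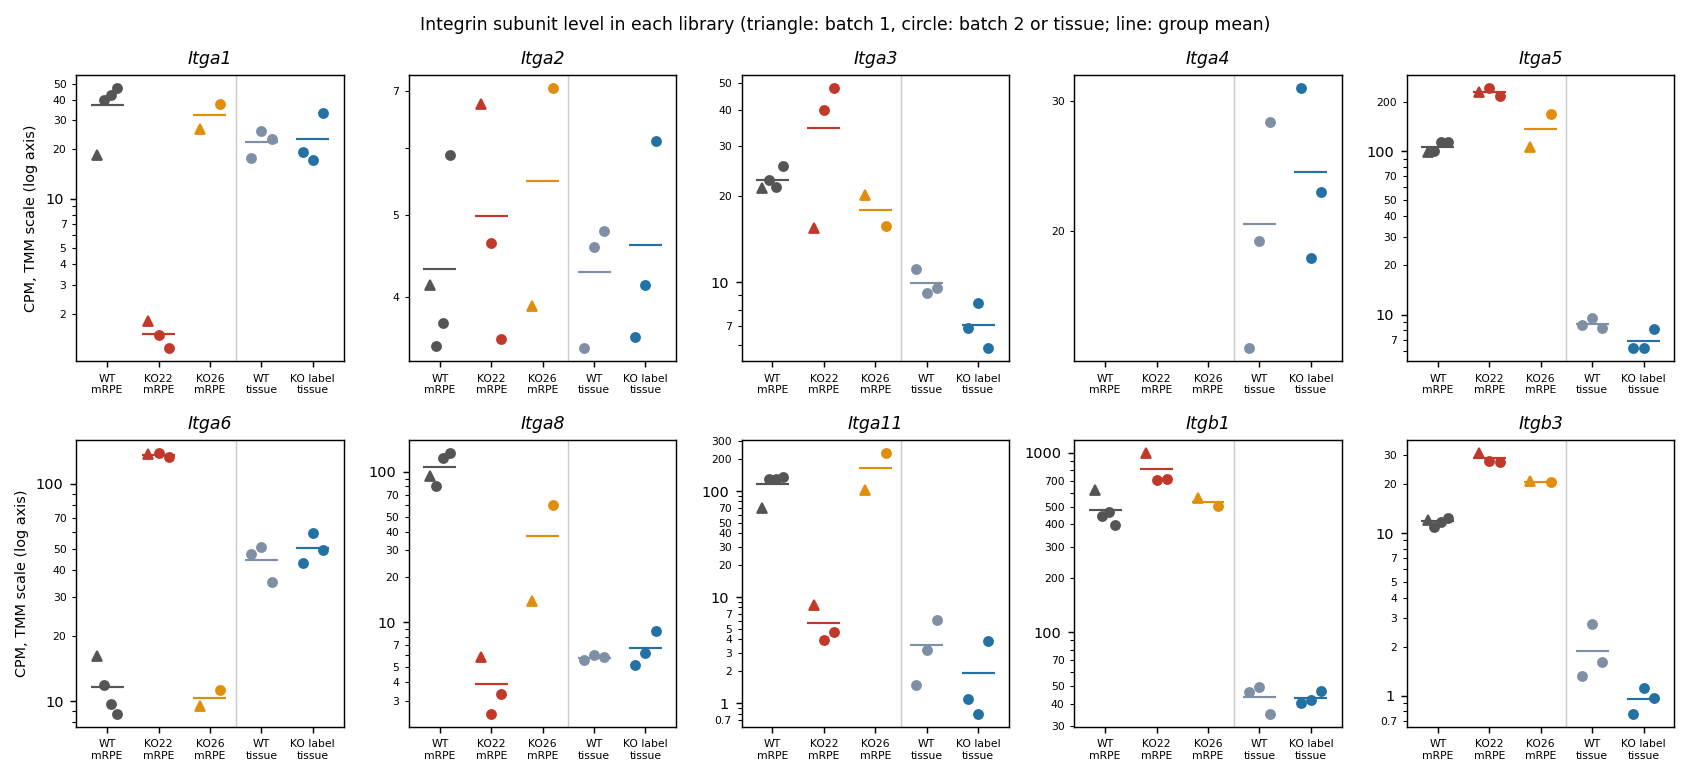
Level of each integrin subunit gene in each library, in CPM on a log axis, with a line at the group mean. The KO22 libraries of *Itga6* sit at 133 to 139 CPM, above every WT and KO26 library, and those of *Itga1*, *Itga8* and *Itga11* sit below every WT and KO26 library. No mRPE points are drawn for *Itga4*, and culture and tissue were normalized separately.

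Among the collagen receptors, *Itga1* (chr13:115089632-115238677, GRCm39, minus strand) was at 18.5, 39.8, 42.6 and 47.4 CPM in WT and at 1.82, 1.49 and 1.24 CPM in KO22. Every KO22 library lay far below the lowest WT library, which was the one of batch 1. This gave a log2 fold change of -4.51 ± 0.3 (SE), adjusted p = 3.82e-06. These KO22 levels rest on 16 to 31 counts per library. *Itga11* (chr9:62585108-62691617, plus strand), the α11 chain of fibroblast-type collagen adhesion, was at 69.8, 129, 129 and 135 CPM in WT and at 8.47, 3.95 and 4.73 CPM in KO22. The groups did not overlap, and the batch 1 library was again the lowest of WT but the highest of KO22. Its log2 fold change was -4.34 ± 0.35, adjusted p = 1.12e-05.

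*Itga2* (chr13:114969617-115068636, minus strand), the α2 chain that platelets and epithelia use for collagen, is the neighbour of *Itga1* with 20995 bases between them. It was at 4.13, 3.5, 3.73 and 5.88 CPM in WT and at 6.75, 4.63 and 3.57 CPM in KO22. The groups overlapped, and the log2 fold change of 0.16 had a 95% interval of -0.45 to 0.77 (adjusted p = 0.652). The intervals of these adjacent genes lie apart, since that of *Itga1* ran from -5.18 to -3.84. The median log2 fold change over the 853 genes tested on chromosome 13 was 0.02. Exons of *Itga1* and *Itga2* overlap those of *Mocs2* on the opposite strand, and those of *Itga1* also overlap *Gm49395* on its own strand. Exons of *Itga3*, *Itga4*, *Itga6*, *Itga8* and *Itga11* also overlap those of another gene on the opposite strand. The library kit was stranded, but which strand setting the counts were taken with is not given in the sources used here, and reads of such pairs can be told apart only with it.

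*Itga8* (chr2:12110900-12307214, minus strand), which pairs with β1 as the receptor of nephronectin, showed the largest fall of the members. It was at 94, 80, 123 and 134 CPM in WT and at 5.88, 2.46 and 3.34 CPM in KO22. All 3 KO22 libraries lay below all 4 WT libraries, and the log2 fold change was -4.88 ± 0.32 (adjusted p = 3.61e-06). The genes whose level over the 9 mRPE libraries was most like that of *Itga8* were *Galnt11*, *Naaladl2* and *Pdgfrl*, with Pearson r of 0.9942, 0.9902 and 0.9889. The libraries share their clone and batch, and 927 genes had an r over 0.9 with *Itga8*.

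Among the laminin receptors, *Itga6* (chr2:71575960-71689757, plus strand) encodes the α6 chain, which joins β1 or, in hemidesmosomes, β4. It was at 16.2, 11.9, 9.72 and 8.76 CPM in WT and at 137, 139 and 133 CPM in KO22. The KO22 libraries lay close together and far above WT, with a log2 fold change of 3.54 ± 0.16 (adjusted p = 6.62e-07). *Itga6* and *Itga8* lie on the same chromosome, whose 1513 tested genes had a median log2 fold change of 0.14.

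*Itga3* (chr11:94935296-94967682, minus strand) encodes α3, the other laminin receptor chain. It was at 21.3, 22.7, 21.6 and 25.5 CPM in WT and at 15.5, 40.1 and 48 CPM in KO22. The KO22 libraries fell on both sides of WT, the batch 1 library below every WT library and the batch 2 libraries above. Over both batches the log2 fold change was 0.54 (95% interval 0.01 to 1.06, adjusted p = 0.0807), while within batch 1 it was -0.45 and within batch 2 it was 0.9. The direction therefore differed between batches, and batch 1 holds only 1 library of each clone and of WT.

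Among the RGD receptors, *Itga5* (chr15:103252713-103275270, minus strand), the fibronectin receptor chain, was at 98.9, 99.7, 113 and 113 CPM in WT and at 231, 245 and 219 CPM in KO22. The groups did not overlap. Its log2 fold change of 1.13 (95% interval 0.89 to 1.37, adjusted p = 2.81e-05) passed the test but was just under the fold limit. The median log2 fold change over the 748 genes tested on chromosome 15 was 0.37, and any relation was not tested. *Itgb3* (chr11:104498826-104561302, plus strand) was at 12.1, 10.9, 11.7 and 12.4 CPM in WT and at 31.1, 27.9 and 27.2 CPM in KO22. Its groups did not overlap either, and the log2 fold change was 1.28 ± 0.12 (adjusted p = 3.25e-05), just over the limit.

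*Itgb1* (chr8:129411876-129460618, plus strand), the β chain that all 8 α chains share, was the highest of the members. It was at 622, 446, 471 and 394 CPM in WT and at 1000, 708 and 719 CPM in KO22. The lowest KO22 library lay above the highest WT library, and in each group the batch 1 library was the highest. The log2 fold change of 0.7 (95% interval 0.45 to 0.95, adjusted p = 0.000615) was under the fold limit. Over the 1089 genes tested on chromosome 8 the median log2 fold change was 0.6, so that the value of *Itgb1* was close to that of its chromosome. Whether the 2 are related was not tested. The levels most like that of *Itgb1* over the 9 libraries were those of *Cideb*, *Rdh10* and *Phf13*, with r of 0.9846, 0.9844 and 0.9839, and 527 genes had an r over 0.9.

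Within each batch, which the fit takes as a term, the log2 fold changes of the called members kept their direction. In batches 1 and 2 these were -3.04 and -4.55 for *Itga1*, -2.97 and -4.76 for *Itga11*, -3.89 and -5.03 for *Itga8*, 3.04 and 3.69 for *Itga6*, and 1.33 and 1.21 for *Itgb3*. The falls of the 3 α genes were smaller in batch 1 than in batch 2.

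**Figure D2:**
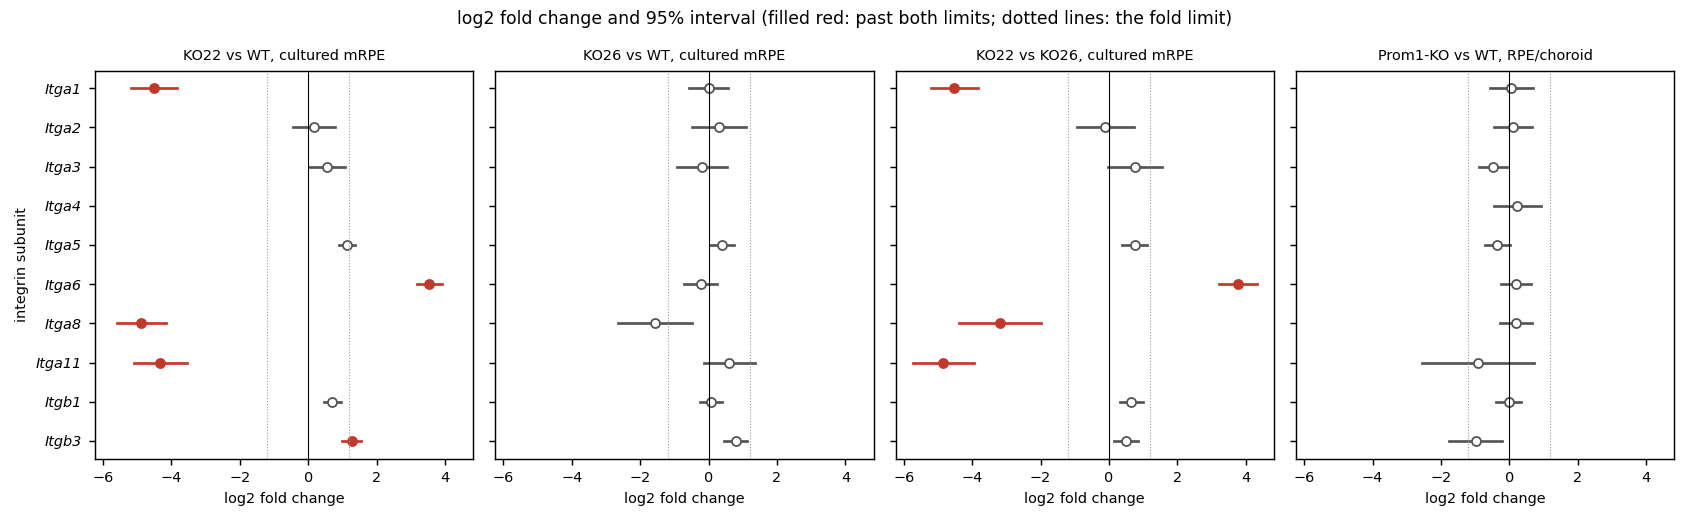
The log2 fold change of each integrin subunit gene with its 95% interval in 4 comparisons. Filled points passed both limits, and the dotted lines stand at the fold limit of 1.2. KO22 departs from both WT and KO26 in *Itga1*, *Itga6*, *Itga8* and *Itga11*, and no point is filled for KO26 against WT or for RPE/choroid.

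The second comparison asked whether the other clone carried the same differences. Its KO26 side, like that of the third comparison, holds only libraries that the paper removed as outliers. With KO26 against WT, 1.92% of 20737 genes were called and none of the 9 members. At an unadjusted p under 0.05 there were 3 of the 9, and DESeq2 called 0. By the adjusted p alone 1 passed, *Itgb3*, against 3.50% of all genes, and 3 had groups that did not overlap, against 24.7% of all genes. *Itgb3* was at 20.9 and 20.5 CPM in KO26, above all 4 WT libraries (log2 fold change 0.79 ± 0.15, adjusted p = 0.0214).

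*Itga8* in KO26 was at 13.8 CPM in batch 1 and 60.6 CPM in batch 2. Both lay below the lowest WT library, yet far from each other, and the log2 fold change of -1.56 had a wide interval of -2.65 to -0.48 (adjusted p = 0.112). It was -2.73 within batch 1 and -0.85 within batch 2. With the WT and KO26 libraries fitted alone the value was -1.6 and the adjusted p was 0.00305, which would call it lower. The other chains that fell in KO22 did not pass here: *Itga11* was at 103 and 230 CPM (log2 fold change 0.59, interval -0.15 to 1.34) and *Itga1* at 26.7 and 37.6 CPM (0, interval -0.57 to 0.57). Over the alternative settings the value of *Itga11* ran from -0.07 to 0.97, and it passed both limits in none. *Itga6* was at 9.51 and 11.2 CPM, within the range of WT (-0.23, interval -0.71 to 0.25).

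The third comparison set the clones against each other directly. It shares its libraries with the first 2, so its values are not a separate line of evidence. Of all genes 18.3% were called, 7.56% higher and 10.7% lower in KO22. Of the 9 members 4 were called, *Itga6* higher (3.77 ± 0.25, adjusted p = 3.71e-06) and 3 lower, *Itga1* (-4.52 ± 0.32, adjusted p = 4.85e-06), *Itga11* (-4.85 ± 0.4, adjusted p = 1.57e-05) and *Itga8* (-3.2 ± 0.54, adjusted p = 0.00126). The size of the *Itga8* difference was uneven, at -1.16 within batch 1 and -4.18 within batch 2, where KO26 was at 13.8 and 60.6 CPM. Without replicate 2 of KO26 it was -1.74 (adjusted p = 0.0178), still past both limits. *Itga5*, *Itgb1* and *Itgb3* passed by the adjusted p alone, at log2 fold changes of 0.75, 0.65 and 0.49, so that 7 of the 9 did, against 34.4% of all genes. The same number had groups that did not overlap, against 47.9% of all genes. The median log2 fold change between the clones was 0.4 over the chromosome of *Itga5*, 0.59 over that of *Itgb1* and -0.05 over that of *Itgb3*. The clones, whose deletions in *Prom1* differ, differed in *Itga1*, *Itga6*, *Itga8* and *Itga11* by about as much as KO22 differed from WT in 3 of the 4. With a single clone behind each name, the site of the deletion and other differences between clones cannot be told apart.

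To compare levels between subunits, CPM was divided by the length in kb of the longest transcript of each gene, since longer transcripts give more counts. On this scale the order in WT cells was *Itgb1* at 93.8 ± 19 (SD, n = 4), then *Itga5* at 24.1 ± 1.8, *Itga11* at 21.7 ± 5.75 and *Itga8* at 15.6 ± 3.61 CPM per kb. *Itga5* and *Itga11* did not differ beyond their spread, nor did *Itga11* and *Itga8*. The lower members were *Itga3* at 4.43, *Itga1* at 3.33, *Itgb3* at 2.02, *Itga6* at 1.68 and *Itga2* at 0.607 CPM per kb. Each of these overlapped in range with its neighbour except *Itga6* and *Itga2*.

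In KO22 the order was *Itgb1* at 157 ± 32.6 (SD, n = 3), *Itga5* at 52.5 ± 2.99 and *Itga6* at 19.6 ± 0.436 CPM per kb. The ranges of these 3 did not overlap. *Itga3* at 6.71, *Itgb3* at 4.94, *Itga11* at 1.07, *Itga2* at 0.701, *Itga8* at 0.565 and *Itga1* at 0.136 CPM per kb came after. *Itga6* thus moved from the eighth place in WT to the third, and *Itga1* to the last.

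As shares of the summed level per kb of the 7 α members measured in both tables, *Itga5* made up 34% in WT, *Itga11* 30% and *Itga8* 21.8%. In KO22, *Itga5* made up 64.5% and *Itga6* 24.2%, while *Itga11*, *Itga8* and *Itga1* were at 1.34%, 0.703% and 0.168%. KO26 kept *Itga5* at 41.7% and *Itga11* at 39.8%, with *Itga8* at 6.31% and *Itga6* at 2.09%. The sum of the 7 changed little by comparison, at 71.4 ± 10.6 CPM per kb in WT (n = 4), 81.3 ± 3.38 in KO22 (n = 3) and 76.3 in KO26 (n = 2, 53.7 and 99). The sum divided by the level of *Itgb1* was 0.797 ± 0.243 in WT and 0.532 ± 0.113 in KO22, and the 2 ranges overlapped. Within batch 1 it was 0.479 in WT and 0.404 in KO22. Within batch 2 it was 0.791, 0.848 and 1.07 in WT and 0.619 and 0.572 in KO22, so that KO22 was the lower in both batches. This difference was not tested. With the mean transcript length in place of the longest, the *Itga6* share in KO22 was 30.3% and that of *Itga5* 57.1%. These are not shares of all α chains, since α genes outside the members are left out. Among those left out, *Itgav* was at 277 CPM in WT, 351 CPM in KO22 and 319 CPM in KO26. *Itga5* was at 106, 232 and 137 CPM in the same groups.

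**Figure D3:**
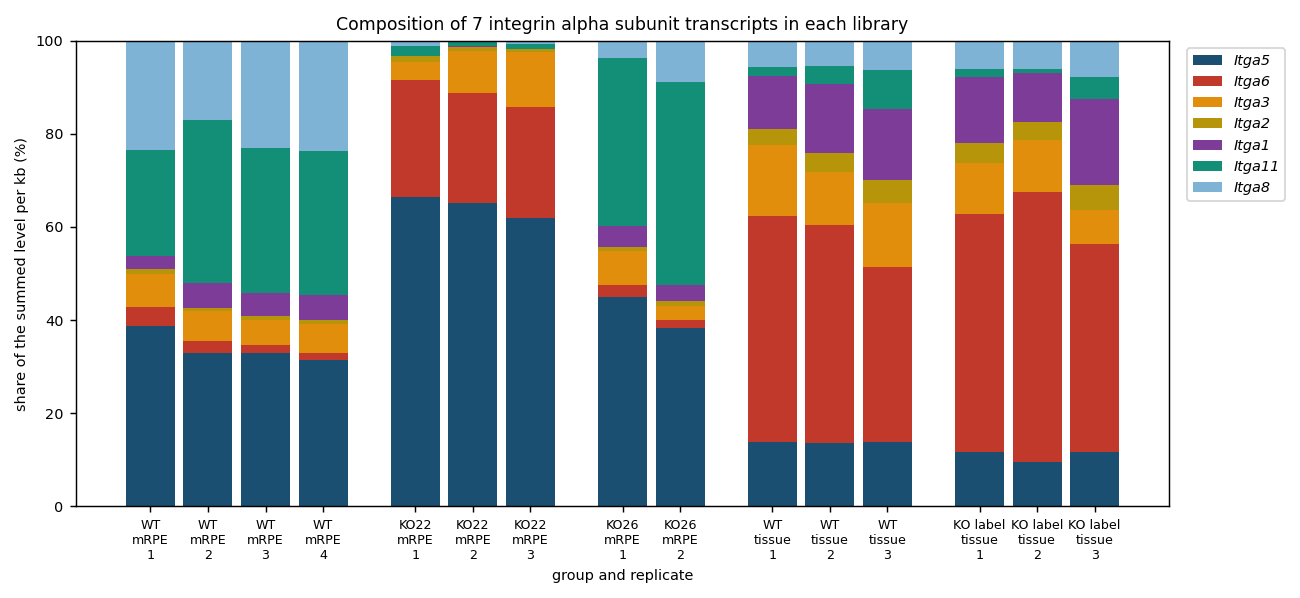
Share of each of 7 integrin α subunit genes in their summed level per kb of transcript, as a stacked bar for each library. *Itga11* and *Itga8* together fill more of each WT mRPE bar than *Itga5*, the KO22 bars are mostly *Itga5* and *Itga6*, and *Itga6* leads in every RPE/choroid library.

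The integrin subunits outside the members numbered 17 on the list, and 11 were tested in KO22 against WT. Of these 2 rose, *Itgb7* (4.95 ± 0.24, adjusted p = 7.47e-07) and *Itgae* (1.36 ± 0.35, adjusted p = 0.0091), which encode the chains of αEβ7, an integrin of leukocytes. The level of *Itgb7* was 1.67 ± 0.461 CPM in WT (SD, n = 4), 50.8 ± 11 CPM in KO22 (n = 3) and 1.58 CPM in KO26. The leukocyte markers *Ptprc*, *Adgre1* and *C1qa* have no value here in the cultured cells, while *Csf1r*, *Cd68* and *Lyz2* do. Their summed level was 7.75 to 9.72 CPM in WT, 10.9 to 13.8 CPM in KO22 and 10.7 to 11 CPM in KO26. In KO22 *Cd68* was at 0.87 (adjusted p = 0.0101) and *Csf1r* at 0.29 (adjusted p = 0.281), both under the fold limit. The part of these markers in the values of *Itgb7* and *Itgae* was not tested. Falls were seen for 2, *Itga9* (-1.34 ± 0.25, adjusted p = 0.00158) and *Itgb8* (-1.23 ± 0.12, adjusted p = 3.97e-05), the latter a partner of αv in the activation of TGF-β. *Itgav* was at 0.29 (adjusted p = 0.0699), and *Itgb5*, its partner in outer segment uptake, at -0.78 (adjusted p = 0.000365), under the fold limit. In KO26 edgeR and DESeq2 called none of the 11, with 2 at an unadjusted p under 0.05. *Itgb8* was at -1.02 (adjusted p = 0.0144), and *Itga9* at 1.09 (adjusted p = 0.0412), both under the fold limit. The direction of *Itga9* was thus opposite to that in KO22. Between the clones, where 18.3% of all genes were called, *Itgb7* was called higher in KO22 (5.03 ± 0.33) and *Itga9* lower (-2.44 ± 0.27).

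The matrix genes to which these receptors bind changed as well in KO22. The counts below are of genes past both limits, to be read beside the 25.2% of all genes called. Of 14 collagen genes 6 were called lower and 0 higher, with *Col6a2* at -2.01 ± 0.14, *Col6a1* at -1.81 ± 0.12, *Col1a2* at -1.74 ± 0.15 and *Col4a4* at -1.52 ± 0.3 on the log2 scale. The median of the 14 was -0.86. *Col4a6*, of the basement membrane, was higher but just under the fold limit (1.17 ± 0.15, adjusted p = 0.000168). Of 9 laminin genes 2 rose, *Lama5* (3.3 ± 0.17) and *Lama3* (2.74 ± 0.38), and 2 fell, *Lama2* (-5.66 ± 0.39) and *Lama1* (-2.2 ± 0.48). *Lama3* encodes an α chain of epithelial laminin, and *Lama2* the α chain of the laminin of muscle and nerve. *Lama3* had at most 13 counts in a WT library, and *Lama1* at most 17 in a KO22 library. *Lama2* was at 416 CPM in WT, 8.5 CPM in KO22 and 350 CPM in KO26.

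Of the 10 tested ligands of the RGD and α4 receptors, 1 rose and 5 fell. *Spp1*, which encodes osteopontin, a ligand of αvβ3, rose (1.55 ± 0.2), and the falls included *Postn* (-4.77 ± 0.22), *Npnt* (-3.48 ± 0.15), *Fn1* (-2.19 ± 0.25) and *Fbn1* (-1.94 ± 0.13). *Npnt* encodes nephronectin, the ligand of α8β1, and was at 100 CPM in WT, 9.52 CPM in KO22 and 83.1 CPM in KO26. *Fn1*, the ligand of α5β1, went from 9910 CPM to 2280 CPM while *Itga5* was higher. Among 27 adhesion adaptors 2 rose, *Parvb* (3.2 ± 0.26) and *Ptk2b* (1.2 ± 0.15), and 2 fell, *Lims2* (-4.95 ± 0.25) and *Tgfb1i1* (-1.21 ± 0.12). Past both limits this is a smaller share than among all genes, but 22 of the 27 had an unadjusted p under 0.05. All of these called ligands and adaptors had an adjusted p of 0.00372 or less. In KO26 edgeR called no gene of these 4 lists. At an unadjusted p under 0.05 there were 9 of the collagen and 4 of the laminin genes. So were 3 of the RGD and α4 ligands and 4 of the adaptors. Of those 9 collagen genes *Col4a3* (-1.31) and *Col4a6* (-0.86) were lower in KO26, and the others were higher. The median of the 14 collagen genes was 0.34 in KO26, opposite in sign to KO22. DESeq2 called *Lama1* and *Lamb3* higher and *Thbs1* lower there. Between the clones, where 18.3% of all genes were called, 2 of 9 laminin genes were higher and 2 lower in KO22, and 1 of 14 collagen genes was higher and 6 lower, with *Lama2* at -5.5 ± 0.41 (adjusted p = 7.51e-06) and *Lama5* at 3.81 ± 0.39 (adjusted p = 5.96e-05).

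**Figure D4:**
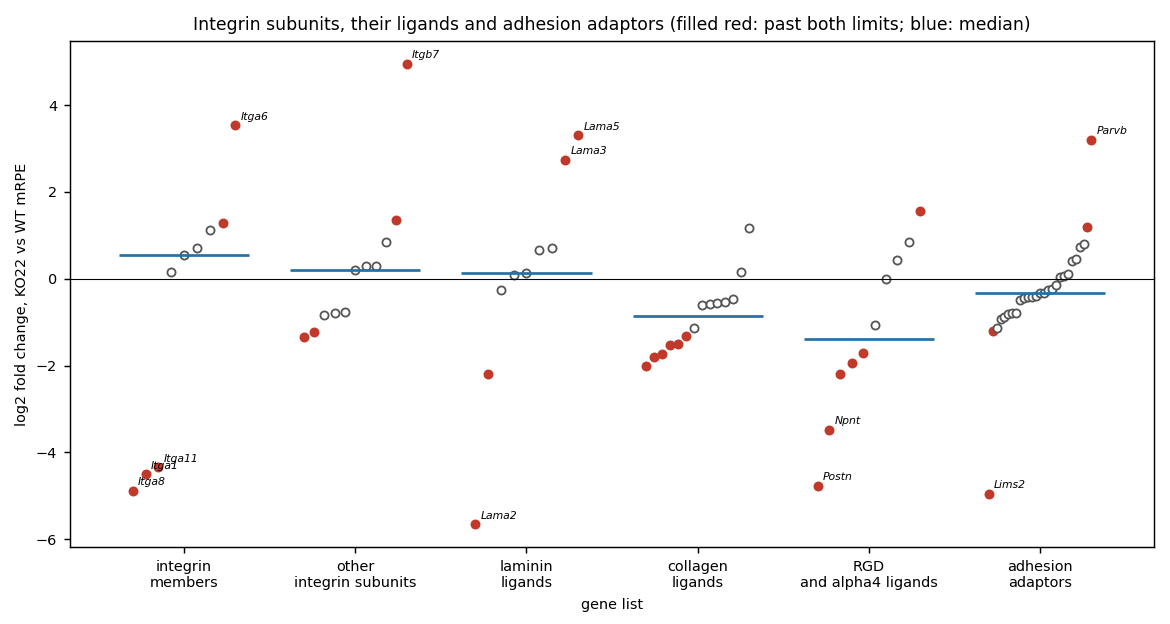
The log2 fold change of KO22 against WT for the integrin members, the other integrin subunits, 3 lists of matrix ligands and the adhesion adaptors, 1 point per tested gene and a blue line at each list's median. The collagen and RGD ligand lists lie mostly below 0, and the laminin list holds both *Lama5* at 3.3 and *Lama2* at -5.66.

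Markers of other cell types moved with these differences. The summed level of 6 mural and fibroblast markers was 3370 to 3550 CPM in WT, 1690 to 2270 CPM in KO22 and 2910 to 3230 CPM in KO26. Of the 6, 4 fell in KO22, among them *Acta2* (-2.28 ± 0.17, adjusted p = 6.43e-06) and *Pdgfrb* (-1.32 ± 0.13, adjusted p = 2.99e-05). *Rgs5* fell in KO22 (-2.39 ± 0.48, adjusted p = 0.00239) but was higher in KO26 (2.55 ± 0.4, adjusted p = 0.0116). Its level was low, at 1.15 CPM in WT, 0.2 CPM in KO22 with at most 6 counts, and 4.96 CPM in KO26. In KO26 *Rgs5* was the only one of the 6 called. *Dcn* at 0.61 and *Myh11* at -0.12 did not pass in KO22. The summed level of the endothelial markers, of which *Kdr* made up most in WT and KO26, was 153 to 236 CPM in WT, 3.49 to 5.4 CPM in KO22 and 56.7 to 74.1 CPM in KO26, while *Cdh5*, which defines endothelium, has no value here in the cultured cells. These markers moved in both directions: of the 5 tested in KO22, *Kdr* (-6.22 ± 0.47) and *Tek* (-2.38 ± 0.43) fell, *Plvap* rose (1.82 ± 0.55, adjusted p = 0.0192), and *Vwf* at 1.93 and *Pecam1* at -0.29 did not pass. *Tek* and *Plvap* rest on few counts, with at most 5 counts of *Tek* in KO22 and a mean of 0.297 CPM of *Plvap* in WT. The part of these markers in the integrin differences was not tested.

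In RPE/choroid, the fourth comparison asked whether the libraries labelled *Prom1*-KO differed from WT in the same subunits. Of 24926 genes 0.189% were called, all of them lower, and none of the 10 members. At an unadjusted p under 0.05 there were 2 of the 10, *Itga3* and *Itgb3*, and DESeq2 called 0. By the adjusted p alone 0 of the 10 passed, against 0.193% of all genes. The groups did not overlap for 3, *Itga3*, *Itga5* and *Itgb3*, all lower, against 14.6% of all genes in either direction.

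*Itgb3* was at 1.32, 2.74 and 1.62 CPM in WT tissue and at 0.777, 1.11 and 0.962 CPM in the libraries labelled *Prom1*-KO. The log2 fold change was -0.99 (interval -1.76 to -0.21, adjusted p = 0.458), and without replicate 3 it was -1.01. *Itga3* was at 11.1, 9.13 and 9.5 CPM and at 6.93, 8.42 and 5.87 CPM (-0.48, interval -0.88 to -0.08, adjusted p = 0.5), and *Itga5* at 8.68, 9.49 and 8.29 CPM and at 6.23, 6.29 and 8.19 CPM (-0.36, interval -0.72 to 0.01, adjusted p = 0.616). Without replicate 3 the latter values were -0.38 and -0.51. None of the 3 passed the correction over all genes. The summed endothelial markers were also lower, at 73.8 to 154 CPM in WT and 43.3 to 69.1 CPM in the libraries labelled *Prom1*-KO. Of these 6 markers edgeR called none, with 5 at an unadjusted p under 0.05, and DESeq2 called *Plvap* lower. The part of these and of the RPE markers in the integrin values was not tested.

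The 4 α genes called in KO22 overlapped between the tissue groups. *Itga6* was at 47.6, 51.1 and 35.5 CPM in WT and at 43, 59.6 and 49.4 CPM in the libraries labelled *Prom1*-KO (0.18, interval -0.26 to 0.62). *Itga1* was at 17.8, 25.9 and 23.1 CPM and at 19.2, 17.1 and 33 CPM (0.05, interval -0.58 to 0.68), where the highest value is that of replicate 3, and *Itga8* at 5.57, 5.99 and 5.86 CPM and at 5.14, 6.22 and 8.66 CPM (0.2, interval -0.28 to 0.67). Without replicate 3 the log2 fold changes were 0.18, -0.31 and -0.04. *Itga11* was at 1.47, 3.16 and 6.05 CPM and at 1.09, 0.8 and 3.88 CPM, so spread in both groups that its interval ran from -2.56 to 0.71, and the value of -0.93 became -1.93 without replicate 3.

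*Itga4* (chr2:79085660-79163467, plus strand), known for leukocyte adhesion, could be followed only in tissue. It was at 13.9, 19.4 and 28.1 CPM in WT and at 31.3, 18.4 and 22.6 CPM in the libraries labelled *Prom1*-KO, and the groups overlapped (0.23, interval -0.45 to 0.92, adjusted p = 0.885). The summed macrophage and leukocyte markers were at 250 to 317 CPM and 202 to 281 CPM. *Lyz2* made up most of this, at a mean of 201 and 183 CPM. The markers moved in both directions, with *Ptprc* at 0.54 (adjusted p = 0.503) and *Csf1r* at -0.54 (adjusted p = 0.211), and none was called. *Itgb1* was at 46.3, 49.5 and 35.2 CPM and at 40.4, 41.8 and 46.9 CPM (-0.02, interval -0.4 to 0.35), and *Itga2* at 3.48, 4.58 and 4.78 CPM and at 3.59, 4.13 and 6.1 CPM (0.1, interval -0.46 to 0.66, and -0.16 without replicate 3). For both genes the groups overlapped as well.

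Per kb, the order in WT tissue was *Itgb1* at 8.48 ± 1.46 and *Itga6* at 6.45 ± 1.18 (SD, n = 3), which overlapped, followed by *Itga4* at 2.06, *Itga1* and *Itga5* at 2 and *Itga3* at 1.93, which did not differ beyond their spread. *Itga8* at 0.843, *Itga11* at 0.669, *Itga2* at 0.602 and *Itgb3* at 0.325 CPM per kb were the lowest. *Itga6* made up 44.3 ± 5.81% of the 7 α genes in WT tissue and 51.3 ± 6.62% in the libraries labelled *Prom1*-KO. The tissue and culture tables were normalized separately and hold different cell mixtures, so no test was made across them. Of the αv integrins, *Itgav* was at 76.1 CPM in WT tissue and 45.2 CPM in the libraries labelled *Prom1*-KO (-0.75 ± 0.15, adjusted p = 0.184), and *Itgb8* at 151 CPM and 50.4 CPM (-1.58 ± 0.23, adjusted p = 0.0693). *Itgb5* was at 12.9 and 14.6 CPM (0.18, adjusted p = 0.78). Of the 15 other integrin subunits tested in tissue edgeR called none, with 3 at an unadjusted p under 0.05, and DESeq2 called *Itgb8* lower. Of the 6 RPE markers edgeR called *Rpe65*, *Lrat* and *Rdh5* lower there, and DESeq2 also called *Rlbp1* and *Ttr* lower. *Best1* did not pass (-0.25, adjusted p = 0.912). The part of the RPE markers in these integrin values was not tested.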

How the data were processed

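RNA-seq was analysed in 15 libraries, grouped by their labels. The authors trimmed reads with Trim Galore 0.6.7, aligned them to mm39 with STAR and deposited raw counts per gene. For RPE/choroid the aligner is known only from the submitters' processing notes. The deposited normalized signal is the raw count divided by 1 size factor per library and was not used in tests. The authors' methods name a filter of 5 counts in 3 samples, which 20737 of the 20910 mRPE genes deposited met. The kit was stranded, and the strand setting of the counts is not given in the sources used here.

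The quasi-likelihood test of edgeR 4.0.16 (R 4.3.3) was run with TMM normalization on the genes that reached 5 counts in 3 or more libraries, with batch as a term for mRPE and Benjamini-Hochberg adjustment over all genes tested. KO22 with WT used 7 libraries, and the other mRPE comparisons used 9. Standard errors were derived from the fold change and its F statistic. CPM used TMM library sizes, and within-batch values added 0.5 CPM. Coordinates, lengths and promoters came from GENCODE vM39 on GRCm39. Genes named are the members, list genes with the largest changes among those called, *Itgav*, *Itgb5*, the markers described, and the 3 genes most like *Itga8* and *Itgb1*. The members and lists were chosen with earlier results of these data known. A gene of the laminin list is not reported here, and the list's counts leave it out. The fits were tested on simulated data. Alternatives were DESeq2 1.42.0 (size factors and test), no count filter, no fold limit, no batch term, other sets of libraries, mean transcript length, and each library left out in turn.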

Additional observations from a re-analysis of the deposited data

Results flagged for a closer look

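*Itga11* was at 69.8 CPM in the WT library of batch 1, far below the other 3 WT libraries, which lay close together at 129 to 135 CPM. About 1 in 20 groups of such size is picked out by chance. This library is also the only WT library of its batch.

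Between the clones the test of the difference itself passed both limits for *Itga1* (-4.52), *Itga6* (3.77), *Itga8* (-3.2) and *Itga11* (-4.85), given as log2 fold changes of KO22 against KO26. For *Itga8* the value ran from -4.09 to -1.74 over the alternatives, the former without replicate 1 of KO26 and the latter without replicate 2.

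*Itga5* and *Itgb3* were higher in every KO22 library than in any WT library, and lower in every RPE/choroid library labelled *Prom1*-KO than in any WT tissue library, at log2 fold changes of -0.36 and -0.99. The difference between culture and tissue was not tested.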

How the results depend on the processing

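Of the counts of called members under the alternatives, 98 stayed within 1.5 times and 8 moved. No called member reversed or lost its call under any alternative run. With no limit on the fold change, 4 members were higher in KO22 than in WT (*Itga5* and *Itgb1* added), 1 in KO26 than in WT (*Itgb3*) and 4 in KO22 than in KO26. With the WT and KO26 libraries alone, 1 member (*Itga8*) was lower in KO26. Leaving out 1 library at a time gave 0 to 1 members lower in KO26, with *Itga8* called without replicate 1 of KO22 (-1.58) or replicate 2 of KO26 (-3.14), and 1 to 2 members higher in KO22 than in KO26, with *Itga3* added without replicate 1 of KO22 (1.31) or replicate 1 of KO26 (1.27). Where a clone is left with 1 library, that library is assumed to vary like the other groups. The causes were not tested. With the mean transcript length 17 of the α shares moved by more than 1 SD. In KO26 only 2 libraries, and in KO22 16 to 31 counts of *Itga1*, limit precision. No paired analysis was possible because the groups share no replicate numbers in the labels.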
